A study of Mus musculus with 6 samples.

Results

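The 7 fatty acid binding protein genes Fabp1 to Fabp7 were described, out of 22180 genes measured on 6 arrays. A probe set was assigned to a gene where the platform annotation gave it 1 gene symbol, which yielded 11 probe sets for the 7 genes. The brightest of a gene's probe sets, chosen by its mean over all 6 arrays, stood for the gene, and rows whose values were written with more digits than the rest of the deposited table were marked. The choice used no difference between the groups.

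Fatty acid binding proteins are small cytosolic carriers that hold a long-chain fatty acid, or a related lipid, inside a barrel of beta strands and move it between membranes, enzymes and nuclear receptors. Each tissue uses its own members. Adipocytes rely on Fabp4, hepatocytes on Fabp1, the intestinal epithelium on Fabp2 with Fabp1 and, in the ileum, Fabp6, and heart, muscle and brown fat on Fabp3. In the adipocyte Fabp4 takes up fatty acids released by lipolysis, binds the lipase encoded by Lipe and delivers ligands to the receptor encoded by Pparg.

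Adipose tissue of mouse offspring aged 32 weeks was compared between a maternal chromium restriction group (3 arrays) and a control diet group (3 arrays). Chromium is a dietary trace element, and the comparison addresses how its restriction in the mother relates to gene expression in the fat of the offspring. Both groups share the tissue and the age, and the diets are the one difference that the labels name. Strain, sex, fat depot and litters are not stated, nor whether a replicate is 1 animal or a pool. The p-values therefore cover only the spread between these samples, which may be technical.

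The deposited values are on a log2 scale, and array medians ran from 5.44 to 5.57. The tissue carried adipocyte transcripts on every array. Lep, which encodes leptin, was at 12.00, 11.75 and 11.92 in the chromium restriction arrays and at 11.87, 11.98 and 11.88 in the controls, and the lipid droplet gene Cidec was at 12.77 to 12.96 in the chromium restriction arrays and 12.95 to 13.09 in the controls. The arrays also differed in transcripts of other organs. The mean of 7 hepatocyte genes (Serpina1a, Fgb, Alb, Ttr, Apoh, Apoa1 and Apoa2) was 11.33, 6.55 and 10.90 for chromium restriction replicates 1, 2 and 3 and 6.56 to 6.94 for the controls. A set of 6 enterocyte genes (Vil1, Sis, Cdx1, Cdx2, Cdh17 and Muc13) had means of 5.22, 6.20 and 5.09 on the same 3 arrays and 5.0 to 5.18 on the control arrays. In RNA from whole tissue, fewer cells of a type and less RNA per cell cannot be told apart.

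Across the family, limma called 2 of 7 genes at an adjusted p of 0.05, Fabp2 and Fabp3, both higher in the chromium restriction group, while 0.0902% of all 22180 genes were called higher and 0.104% lower. Fabp2 and Fabp3 were also the 2 members whose chromium restriction arrays all lay above all controls, an arrangement that held for 3.53% of all genes. The opposite arrangement, all chromium restriction arrays below all controls, held for 0 of 7 members and 6.06% of all genes. The value of Fabp3 came from a row with extra digits. Such rows made up 52 of the 22180 genes tested and 40 of the 43 called ones, and no source used here says how they came about. With these rows left out, 0 genes (0%) passed in limma over 22131 genes, with 1265 at an unadjusted p under 0.05, and neither Fabp2 nor Fabp3 was called. Fabp1 had the widest separation, on 2 of 3 chromium restriction arrays, and Fabp4, the abundant member of fat, moved little on any array. The members were picked with these results known, so their count describes the family and is no independent evidence.

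The promoters of the 3 genes with the widest group differences, Fabp1, Fabp2 and Fabp3, are shown because their transcripts mark different organs and separated the arrays in different ways. Of the 7 members, 5 had an entry among the RefSeq promoter sequences of build GRCm38.p6, which run from 250 bases before to 50 bases after the start of the gene. Motif matches are in capitals.
Fabp1 promoter, chr6:71199629-71199928, + strand: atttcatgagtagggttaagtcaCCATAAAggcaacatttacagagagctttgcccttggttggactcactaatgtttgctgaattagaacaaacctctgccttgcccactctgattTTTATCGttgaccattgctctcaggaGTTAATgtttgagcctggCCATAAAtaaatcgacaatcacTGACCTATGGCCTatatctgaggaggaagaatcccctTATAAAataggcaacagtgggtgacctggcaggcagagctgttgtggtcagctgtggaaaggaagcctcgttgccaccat
Fabp2 promoter, chr3:122894822-122895121, + strand: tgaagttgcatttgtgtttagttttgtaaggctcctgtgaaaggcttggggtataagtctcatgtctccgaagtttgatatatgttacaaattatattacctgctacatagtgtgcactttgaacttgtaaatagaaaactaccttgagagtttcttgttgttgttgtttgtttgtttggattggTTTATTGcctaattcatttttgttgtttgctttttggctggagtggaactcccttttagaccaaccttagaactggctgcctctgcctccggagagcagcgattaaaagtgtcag
Fabp3 promoter, chr4:130308488-130308787, + strand: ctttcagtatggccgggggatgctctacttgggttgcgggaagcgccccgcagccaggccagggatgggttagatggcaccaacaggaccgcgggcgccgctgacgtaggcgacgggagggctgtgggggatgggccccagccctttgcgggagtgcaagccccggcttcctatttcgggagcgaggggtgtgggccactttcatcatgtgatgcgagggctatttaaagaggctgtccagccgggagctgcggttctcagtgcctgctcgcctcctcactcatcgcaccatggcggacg
These sequences were searched on both strands for TATAAA (the core promoter box), AGATAA (zinc finger factors of gut and liver), GTTAAT (a half-site of HNF1, a liver and gut factor), TTTATNG (CDX factors of the intestine), CAAAGTCCA (HNF4) and copies of AGGNCA in the same direction with 1 base between them (the direct repeat read by PPAR and RXR). No matches to different motifs overlapped.

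The Fabp1 promoter held a TATA box beginning 30 bases before the start, an HNF1 half-site 107 bases before it, 3 CDX matches and 1 direct repeat of the PPAR and RXR type on the opposite strand, beginning 67 bases before the start. That direct repeat occurred in 0.381% of 32851 RefSeq promoter sequences of the same length, the HNF1 half-site in 7.10%, the TATA box in 13.6% and the CDX letters in 10.9%. In the Fabp2 promoter 1 match was found, CDX letters 65 bases before the start, and the Fabp3 window held none of the 6 motifs. The letters AGATAA, present in 11.2% of promoters, and the letters of HNF4, present in 0.475%, were in none of the 3. A match describes letters in this window and is not evidence of binding.

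**Figure D1:**
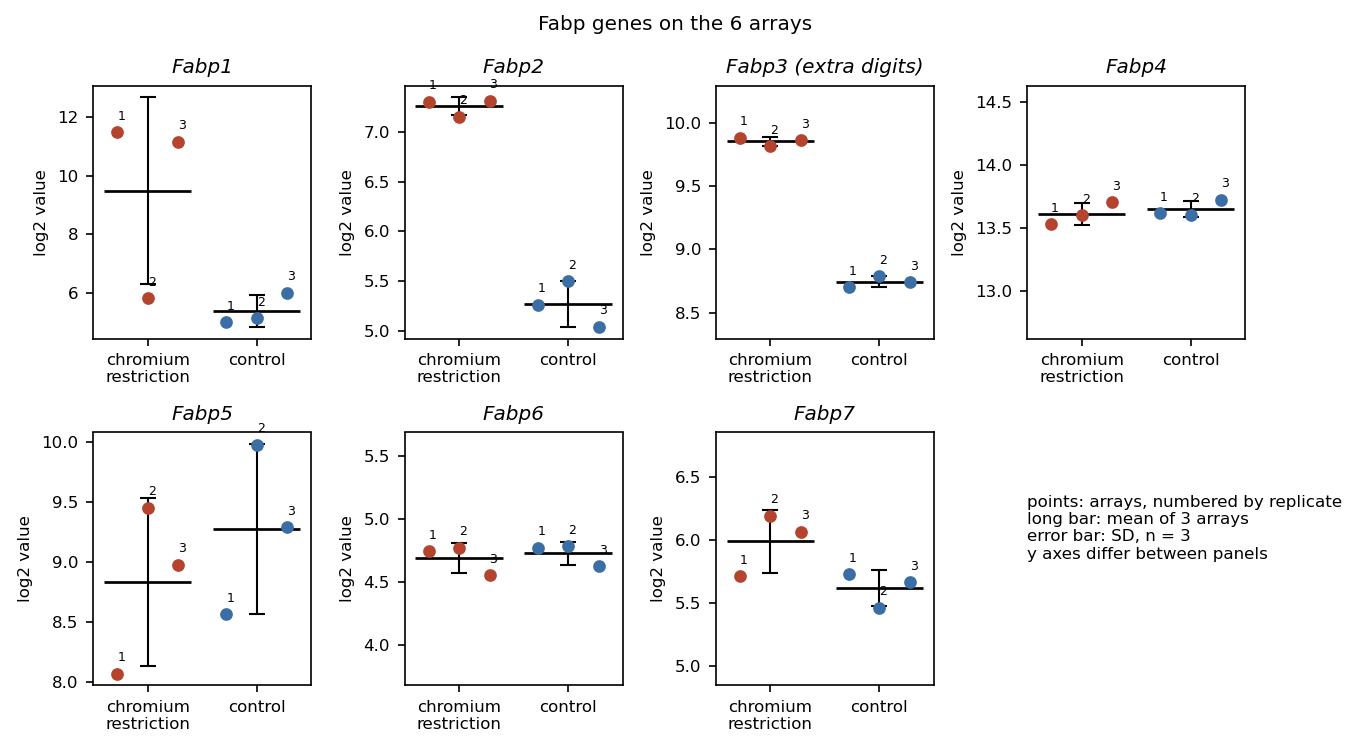
Log2 value (y axis, separate scale per gene) of the probe set that stands for each of the 7 Fabp genes on the 3 chromium restriction arrays (left) and the 3 control arrays (right). Points are arrays numbered by replicate, long bars are means and error bars are SD (n = 3). Fabp2 and Fabp3 separate the groups on all arrays, Fabp1 is at 11.50 and 11.16 in replicates 1 and 3 of the chromium restriction group but at 5.83 in replicate 2, and Fabp4 stays between 13.53 and 13.72.

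Fabp4, the adipocyte member, was near the top of the scale on all 6 arrays. The highest value of any probe set was 13.81 to 13.89 on the control arrays. Whether values this bright can still show a difference in full was not tested, which limits what the even level of Fabp4 can say. It was at 13.53, 13.60 and 13.70 in replicates 1, 2 and 3 of the chromium restriction group, and at 13.62, 13.60 and 13.72 in the control replicates. The groups overlapped, and the whole range over 6 arrays was 0.193. The difference of the means was -0.0379 ± 0.0792 (log2, SE, n = 3 per group), with a 95% interval of -0.23 to 0.154 (limma, adjusted p = 0.991). Of all genes, 73.4% had a larger absolute difference.

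Other adipocyte transcripts did not all share the even level of Fabp4. Of 10 measured white adipocyte markers 9 were lower in the chromium restriction group and 1 was higher, with a median log2 difference of -0.272 against -0.0181 over all genes. The 2 that passed, Retn upward at 1.52 and Adipoq downward at -1.22, lay in rows with extra digits. Plin1, which encodes the coat protein perilipin 1, was at 10.80, 11.53 and 11.24 in the chromium restriction arrays and at 11.49, 11.55 and 11.86 in the controls. The mean of the 10 markers was 11.41, 11.77 and 11.56 in the chromium restriction arrays and 11.78 to 11.86 in the controls, so the lowest means were on the 2 arrays with hepatocyte transcripts. Their part in the marker differences was not tested.

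In the list of fatty acid uptake and activation 17 of 20 genes were measured. Of these 7 were higher and 10 lower, 0 were called higher and 1 lower, and the median log2 difference was -0.029, against -0.0181 over all genes. The 1 call was Slc27a1, a fatty acid transport protein, at -0.898 ± 0.0739 (log2, SE, n = 3), in a row with extra digits. Cd36, the fatty acid translocase of fat and capillaries, was at 12.98, 13.17 and 13.20 in the chromium restriction arrays and at 13.20 to 13.24 in the controls. Acsl5 and Slc27a5, an acyl-CoA synthetase and a bile acid ligase of liver, differed by 0.609 and 1.91 with adjusted p = 0.817 each, and Slc27a3 by -0.241.

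In the list of lipolysis genes 0 of 12 were called, 2 were higher, 10 were lower and the median was -0.335, against -0.0181 over all genes. Abhd5, which encodes the activator of adipose triglyceride lipase, was at 8.17, 9.01 and 8.69 in the chromium restriction arrays and at 9.18, 9.65 and 9.47 in the controls. All 3 chromium restriction arrays lay below the controls, as they did for 4 of the 12 genes and for 6.06% of all genes. The difference of -0.81 ± 0.232 did not pass (log2, SE, n = 3, limma adjusted p = 0.725). Pnpla2, the lipase itself, differed by -0.354, Prkaca by -0.317 and Ces1f by -0.605, with adjusted p of 0.76 to 0.817.

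The list of nuclear receptors for fatty acids or bile acids, which also holds the coactivator genes Ppargc1a and Ppargc1b, gave 2 calls among 13 measured genes. These were in opposite directions and both in rows with extra digits. As deposited, Pparg differed by 1.98 and Ppard by -1.205. Outside such rows Nr1h3, a liver X receptor, differed by -0.414 and Nr1h4, the bile acid receptor, by 1.24, neither of which passed (limma, adjusted p = 0.707 and 0.77). Among 17 measured PPAR target genes 0 were called, 5 were higher and 12 lower, with a median of -0.141. Acadl, a mitochondrial acyl-CoA dehydrogenase, differed by -0.695, Pck1 by -0.40, Acadm by -0.353 and Cpt1a by 0.592, each with an adjusted p of 0.707 to 0.817.

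Fabp5, the epidermal member, is also made by adipocytes, macrophages and capillary endothelium. It was at 8.07, 9.45 and 8.98 in replicates 1, 2 and 3 of the chromium restriction group, and at 8.56, 9.98 and 9.29 in the control replicates. The groups overlapped, with chromium restriction replicate 1 the lowest array and control replicate 2 the highest. The difference was -0.445 ± 0.465 (log2, SE, n = 3), and its 95% interval of -1.57 to 0.68 covers sizable differences either way (limma, adjusted p = 0.975). It was -0.0622 without chromium restriction replicate 1 and -0.802 without control replicate 1, and was not called in either case.

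Fabp5 was read by 4 probe sets, 17548238 standing for the gene. The other 3 differed by -0.476, -0.389 and -0.124, and with each probe set tested as its own unit, where 0.148% of 33793 passed, none of the 4 was called. Probe sets 17548238, 17548717 and 17396056 put control replicate 2 highest and chromium restriction replicate 1 lowest. The dimmest, 17404073, also had its highest value, 7.43, in control replicate 2 but its lowest, 6.20, in control replicate 1, where chromium restriction replicate 1 was at 6.23. Mouse Fabp5 has processed pseudogenes, so signal shared with near-identical copies cannot be set apart.

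**Figure D2:**
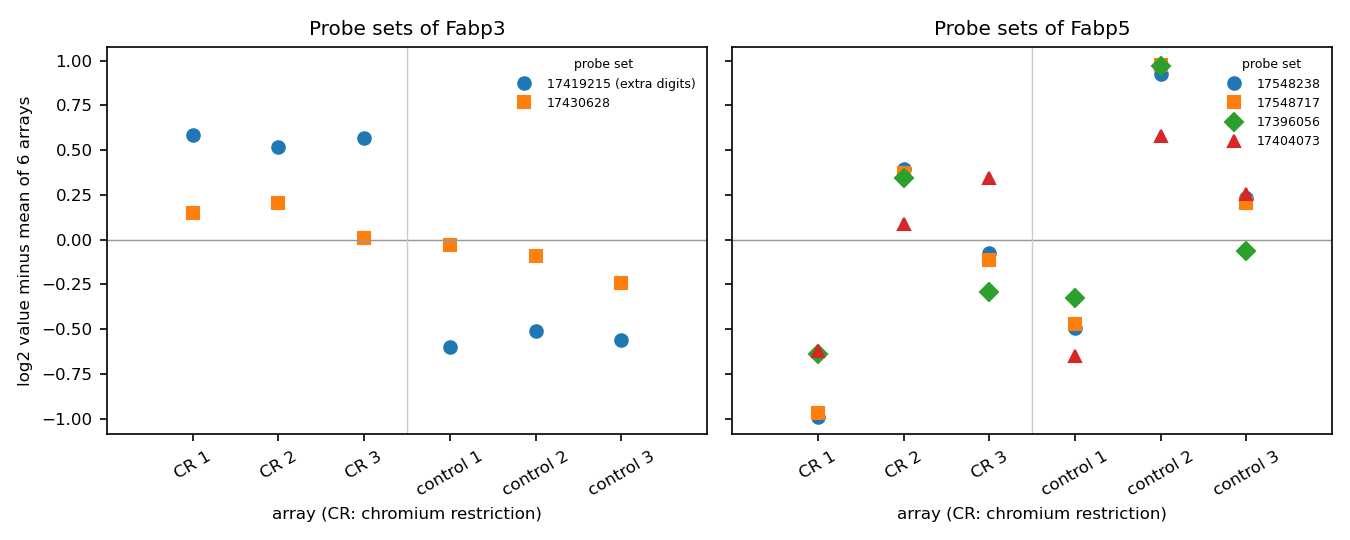
Log2 value minus the probe set's mean over 6 arrays (y axis) on each array (x axis; CR is chromium restriction), with a marker for each of the 2 probe sets of Fabp3 (left) and the 4 of Fabp5 (right). The Fabp3 row with extra digits splits the groups by 1.11, its other probe set by 0.243, and the 4 Fabp5 probe sets put control replicate 2 highest.

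Beside the white adipocyte markers given above, the lists for macrophages, capillary endothelium and keratinocytes held no called gene. Macrophage markers were higher in 8 of 12 and lower in 4, with means of 9.18, 8.84 and 8.72 in the chromium restriction arrays and 8.53 to 8.82 in the controls. Mpeg1, a pore-forming protein of macrophages, had the smallest p, at 0.715 ± 0.103 (log2, SE, n = 3, limma adjusted p = 0.145). Cd163, with the next smallest p, went the other way, at -0.458 (limma, adjusted p = 0.77), and Gpnmb and Itgam differed by 0.625 and 0.344. Capillary endothelium markers were higher in 6 of 10, with means of 9.30 to 9.42 in the chromium restriction arrays and 9.15 to 9.51 in the controls, and the lowest mean was in control replicate 2, where Fabp5 was highest. Keratinocyte and mammary epithelium markers were higher in 6 of 9 and lower in 3, with means of 5.49 to 5.57 in the chromium restriction arrays and 5.26 to 5.43 in the controls. Those with the smallest p went both ways. Krt8 and Krt18 differed by 0.396 and 0.684, and Krt14 and Trp63 by -0.218 and -0.184 (limma, adjusted p = 0.678 to 0.835). The part of these cell types in Fabp5 was not tested.

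The genes whose pattern over the 6 arrays was most like that of Fabp5, by the root mean square difference of mean-centred log2 values, were Mfng (0.20), Klb (0.25), Lctl (0.279), Tmem182 (0.289) and Mrpl49 (0.294). Klb, the co-receptor for fibroblast growth factors of the endocrine type, was at 8.49, 9.70 and 9.14 in the chromium restriction arrays and at 8.99, 9.74 and 9.80 in the controls. Chromium restriction replicate 1 was the lowest array for all 5 of these genes, as it was for Fabp5. They were picked for likeness over these same arrays, so this is partly built in.

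Fabp1, the liver member, split the chromium restriction group. It was at 11.50, 5.83 and 11.16 in replicates 1, 2 and 3 of the chromium restriction group, and at 5.001, 5.14 and 6.01 in the control replicates. Replicates 1 and 3 stood more than 5 log2 units above every control, and replicate 2 lay within the control range. The difference of the means, 4.11 ± 1.49 (log2, SE, n = 3), exceeded that of nearly all genes, with 0.00902% larger in size, but the spread within the chromium restriction group was an SD of 3.18 and the test was not passed (limma, adjusted p = 0.817). Without chromium restriction replicate 2 the difference was 5.95 and passed (adjusted p = 0.00095), and it also passed, at 6.25, with the enterocyte genes as a covariate (adjusted p = 0.00513), a term that stands mostly for that replicate.

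The high Fabp1 arrays were those with hepatocyte transcripts. Relative to the mean of the controls, Fabp1 stood at 6.11, 0.441 and 5.78 in replicates 1, 2 and 3 of the chromium restriction group, where the mean of the 7 hepatocyte genes stood at 4.60, -0.183 and 4.17. Of 11 hepatocyte markers, 10 were above the highest control in replicate 1, 10 in replicate 3 and 1 in replicate 2, where 7 were below the lowest control. The 1 marker lower in the group mean, Cyp2e1, differed by -0.351 (limma, adjusted p = 0.547). Its 3 chromium restriction arrays all lay below the controls, as they did for 6.06% of all genes. The marker mean was 11.49, 6.91 and 11.04 in the chromium restriction arrays and 6.91 to 7.31 in the controls, and Ahsg, a liver plasma protein gene, was at 12.46, 6.38 and 11.99 against 6.02 to 6.75. With the 7 hepatocyte genes as a covariate the Fabp1 difference was 0.648 ± 0.245, and without replicates 1 and 3 it was 0.441 ± 0.423 (log2, SE, limma adjusted p = 1 in both).

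The 5 genes most like Fabp1 over the 6 arrays were Ahsg (0.29), Mug1 (0.31), Pzp (0.313), Mup20 (0.315) and Hamp (0.345), by the same root mean square measure. All 5 encode proteins that the liver secretes. In control replicate 3, which had the highest Fabp1 of the controls, Mug1 was at 5.94 and Hamp at 5.57, each the highest of the controls, and their values in the other controls were 4.82 and 5.11 for Mug1 and 4.55 and 4.51 for Hamp. As these genes were picked for likeness over the same arrays, such a shared order is partly built in. Slc27a2, a hepatic very long-chain acyl-CoA synthetase named after its values were seen, was at 10.99, 5.11 and 10.28 in the chromium restriction arrays and at 5.61 to 6.89 in the controls.

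Fabp2, the intestinal member, separated the groups without splitting the chromium restriction arrays. It was at 7.30, 7.15 and 7.31 in replicates 1, 2 and 3 of the chromium restriction group, and at 5.27, 5.502 and 5.04 in the control replicates. The lowest chromium restriction array stood 1.65 above the highest control. The difference was 1.98 ± 0.129 (log2, SE, n = 3), with a 95% interval of 1.67 to 2.30 (limma, adjusted p = 0.00358). On the control arrays Fabp2 lay at percentiles 37.6 to 48.6 of all probe sets, and without a stated background level a fold has no sure meaning.

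Fabp2 was about as high on the array with intestinal transcripts as on the 2 with hepatocyte transcripts. Relative to the controls it stood at 2.03, 1.88 and 2.04 in replicates 1, 2 and 3 of the chromium restriction group, where the mean of the 6 enterocyte genes stood at 0.13, 1.11 and 0.00. Sis, sucrase-isomaltase, was at 4.62, 7.09 and 4.55 in these arrays and at 4.53 to 4.60 in the controls, and the alkaline phosphatase gene Alpi was at 5.34, 7.24 and 5.20 against 5.19 to 5.44. Of 14 enterocyte markers 11 were above the highest control in replicate 2, 8 in replicate 1 and 4 in replicate 3. The 3 that were so on all 3 arrays were Apob, Mttp and Vil1, an arrangement that held for 3.53% of all genes. Not all markers were raised in replicate 2. Cdx1 was at 5.42 there, within its control range of 5.14 to 5.58, and Cdx2 at 5.37, within 5.20 to 5.54. Apob and Mttp, which serve lipoprotein assembly in liver as well as gut, were at 11.82 and 7.94 in replicate 1, 7.71 and 6.62 in replicate 2 and 11.08 and 7.40 in replicate 3, against 5.45 to 5.66 and 6.05 to 6.35 in the controls.

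The marker mean of the whole enterocyte list was 6.17, 6.67 and 5.94 in the chromium restriction arrays and 5.42 to 5.56 in the controls, and 0 of 14 members were called. With the hepatocyte genes as a covariate the Fabp2 difference was 1.90 (limma, adjusted p = 0.0317), and with the enterocyte genes it was 2.02 (adjusted p = 0.00989). The hepatocyte term was high on chromium restriction replicates 1 and 3 and the enterocyte term on replicate 2. Neither fit alone could therefore account for tissue transcripts on all 3 arrays. In chromium restriction replicate 2 alone against the controls it was 1.88, with adjusted p = 0.123. Leaving out each array in turn kept Fabp2 past the threshold, with differences of 1.87 to 2.10 and adjusted p of 0.0022 to 0.0455. With the rows with extra digits left out its adjusted p was 0.0732 at the same difference. The Fabp2 row itself has no extra digits, and its unadjusted p was 3.31e-06 with and without those rows (limma). Its call over all genes thus depended on the presence of those rows in the adjustment.

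**Figure D3:**
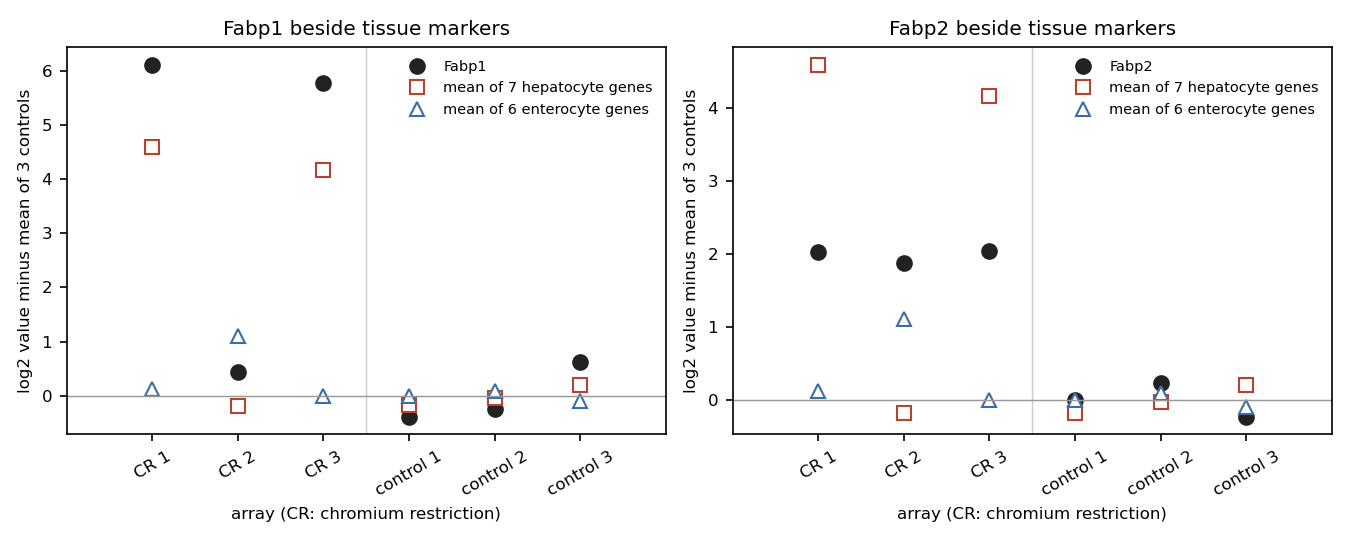
Log2 value minus the mean of the 3 controls (y axis) on each array (x axis; CR is chromium restriction) for Fabp1 (left) and Fabp2 (right), beside the means of 7 hepatocyte genes and 6 enterocyte genes. Fabp1 is high where the hepatocyte genes are, at 6.11 and 5.78 in replicates 1 and 3 of the chromium restriction group and 0.441 in replicate 2, whereas Fabp2 lies between 1.88 and 2.04 on all 3 chromium restriction arrays.

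By the root mean square measure the 5 genes most like Fabp2 were Pparg (0.131), Pdpk1 (0.158), Myo5b (0.195), Inpp5a (0.202) and Dnmt3b (0.24), all 5 in rows with extra digits, whereas the Fabp2 row is written like the rest of the table. With such rows set aside, a choice made after seeing the data, the closest were Cyp3a13 (0.314), Tm4sf4 (0.39), Dsg2 (0.405), Mgam (0.408) and Serpina1e (0.511). Mgam, the brush border enzyme maltase-glucoamylase, was at 6.58, 7.42 and 6.37 in the chromium restriction arrays and at 5.03 to 5.14 in the controls. Tm4sf4, a membrane protein of intestine and liver, was at 7.07, 6.24 and 7.14 against 5.14 to 5.80.

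Fabp6, the bile acid carrier of the ileum, was dim on all arrays. It was at 4.74, 4.77 and 4.55 in the chromium restriction arrays and at 4.77, 4.78 and 4.62 in the controls, at percentiles 14.2 to 25.7 of all probe sets. The groups overlapped and the difference was -0.0361 ± 0.0922, with a 95% interval of -0.259 to 0.187 (log2, SE, n = 3, limma adjusted p = 0.994). Chromium restriction replicate 2, the array with enterocyte transcripts, was at 4.77, as was control replicate 1.

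The other genes of ileal bile acid handling were uneven, and the interval of Fabp6 gives it no sure direction to set beside them. All 6 measured genes of that list were higher, with 0 calls and a median of 0.387, but Slc10a2 and Slc51a by only 0.023 and 0.041. Slc10a2, the ileal bile acid transporter, was at 4.89, 4.71 and 4.89 in the chromium restriction arrays and at 4.78, 4.79 and 4.86 in the controls. Abcc2, an export pump of the hepatocyte canaliculus as well as the gut, was at 8.83, 5.84 and 8.44 against 5.23 to 5.498, and Nr1h4 was at 7.44, 5.78 and 6.87 against 5.35 to 5.57, so both were highest on the arrays with hepatocyte transcripts. Abcc3 and Fgf15 differed by 0.602 and 0.171 (limma, adjusted p = 0.87 and 0.986). Among goblet, Paneth and ileal cell markers 9 of 10 were higher, with 0 calls, a median of 0.122 and means of 5.27 to 5.40 in the chromium restriction arrays and 5.13 to 5.32 in the controls.

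Fabp3, the heart and muscle member, which brown fat also uses, carried the smallest adjusted p of the family in the deposited values. Probe set 17419215 was at 9.88, 9.82 and 9.86 in replicates 1, 2 and 3 of the chromium restriction group, and at 8.70, 8.79 and 8.74 in the control replicates. The lowest chromium restriction array stood 1.03 above the highest control, and the SD within groups was 0.033 and 0.043. The difference was 1.11 ± 0.0663 (log2, SE, n = 3), which is 2.16-fold as deposited (limma, adjusted p = 0.00351). The 3 chromium restriction values were written with 9 decimals and the 3 control values with 6, where values without extra digits had at most 7 decimals.

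The other Fabp3 probe set, 17430628, is written like the rest of the table. It was at 5.36, 5.42 and 5.22 in the chromium restriction arrays and at 5.18, 5.12 and 4.97 in the controls. The groups did not overlap, by a margin of 0.039, and the difference was 0.243 ± 0.0879 (log2, SE, n = 3), with a 95% interval of 0.028 to 0.458 (limma over all probe sets, adjusted p = 0.926). That interval lies below the 0.969 to 1.26 of probe set 17419215 in the same fit, and this probe set was dim, at percentiles 34.8 to 48.5. With the mean of both probe sets the Fabp3 difference was 0.678 (adjusted p = 0.0273).

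Most markers of brown fat and muscle had another order over the arrays than Fabp3. All 3 chromium restriction arrays lay above the controls for 1 of 9 brown and beige markers, Kng2, and for 1 of 13 muscle and heart markers, Mylpf. That arrangement held for 3.53% of all genes. Ucp1, the uncoupling protein of brown fat, was at 4.87, 4.92 and 4.95 in the chromium restriction arrays and at 10.25, 4.89 and 7.37 in control replicates 1, 2 and 3, while Fabp3 in those controls was at 8.70, 8.79 and 8.74. Brown and beige markers were lower in 8 of 9 and higher in 1, with 0 calls, a median of -0.696, and means of 6.37, 6.07 and 6.48 in the chromium restriction arrays and 8.43, 6.20 and 6.95 in the controls. Kng2 was the 1 higher, at 1.46, and stood highest in chromium restriction replicates 1 and 3, the arrays with hepatocyte transcripts. Its part in the list means was not tested. Cidea and Cox8b differed by -2.23 and -1.56 (limma, adjusted p = 0.805 to 0.833, Kng2 included). Muscle and heart markers were higher in 6 of 13 and lower in 7, with 0 calls, a median of -0.019, and means of 5.53 to 5.79 in the chromium restriction arrays and 5.60 to 5.70 in the controls. The cardiac myosin gene Myh6 was at 5.45, 5.14 and 5.04 against 5.23 to 5.34.

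The 5 genes most like Fabp3 over the 6 arrays were Srebf1 (0.058), Coro1c (0.072), Cerk (0.10), Rasl11a (0.126) and Plpp3 (0.131), all 5 in rows with extra digits. Srebf1, the sterol regulatory factor, was at 9.53, 9.62 and 9.64 in the chromium restriction arrays and at 8.50, 8.60 and 8.45 in the controls. With such rows set aside, a choice made after seeing the data, the closest were Mpeg1 (0.217), Mreg (0.217), Cyp2d37-ps (0.225), Arntl (0.229) and Cxcr4 (0.232).

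Fabp7, the member of brain and glia, was at 5.71, 6.19 and 6.06 in replicates 1, 2 and 3 of the chromium restriction group, and at 5.73, 5.46 and 5.67 in the control replicates. Replicates 2 and 3 lay above every control and replicate 1 within their range. The difference was 0.371 ± 0.145, with a 95% interval of 0.019 to 0.722 (log2, SE, n = 3), and did not pass over all genes (limma, adjusted p = 0.817). Schwann cell and glia markers were higher in 3 of 8 and lower in 5, with 0 calls, a median of -0.051, and means of 5.69 to 5.83 in the chromium restriction arrays and 5.55 to 5.83 in the controls. Sox10, a factor of glia, was at 5.29, 5.37 and 5.39 against 5.34, 5.20 and 5.02. The other 3 markers named by their p went both ways. Erbb3 differed by 0.826 and was highest in chromium restriction replicates 1 and 3, while Foxd3 and Mbp differed by -0.154 and -0.094 (limma, adjusted p = 0.725, 0.892 and 0.983).

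**Figure D4:**
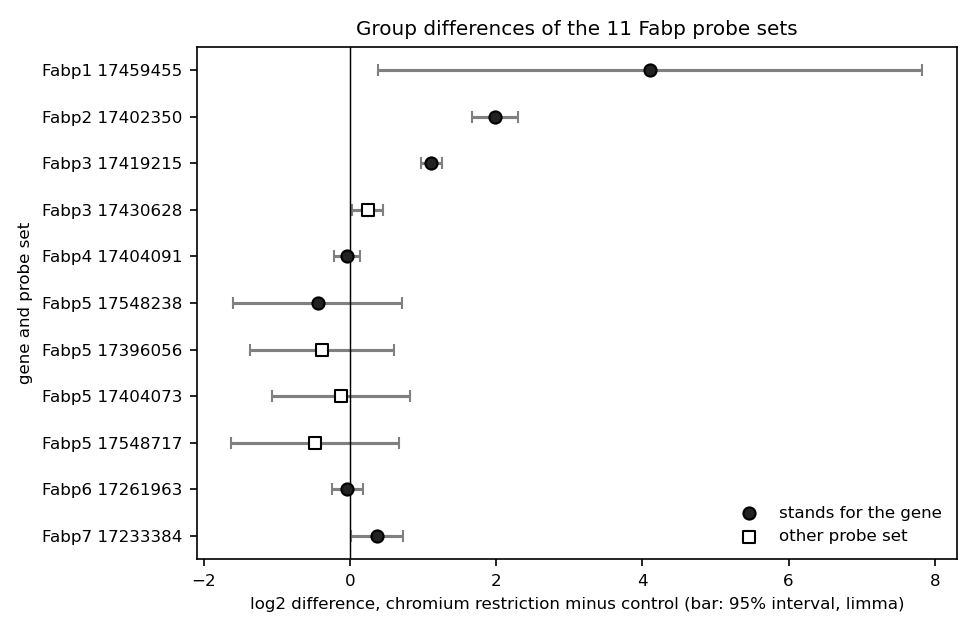
Log2 difference, chromium restriction minus control (x axis), of the 11 Fabp probe sets (y axis), fitted over all 33793 probe sets. Bars are 95% intervals from limma, filled circles stand for the gene and open squares are other probe sets. Fabp2 at 1.98 and Fabp3 probe set 17419215 at 1.11 have narrow bars to the right of 0, Fabp1 at 4.11 has the widest bar, and the bars of Fabp4, Fabp5 and Fabp6 cross 0.

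The nearest relatives of the family held no called gene. Fabp5, Pmp2, Fabp9, Fabp4 and Fabp12 follow each other on chromosome 3 with no other protein-coding gene between them in the RefSeq table of assembly GRCm38.p6. Pmp2, a carrier of myelin, differed by 0.077, and Fabp12, a carrier known from testis, by -0.151 ± 0.101, while Fabp9, the sperm member, was at 4.69, 4.68 and 4.66 in the chromium restriction arrays and at 4.77, 4.76 and 4.50 in the controls. Testis and epididymis markers were higher in 2 of 5 and lower in 3, with 0 calls, a median of -0.041 and means of 4.99 to 5.24 in the chromium restriction arrays and 4.96 to 5.16 in the controls. Of the 7 measured relatives, which include carriers of retinol and retinoic acid, 4 were higher, 3 were lower and 0 were called, with a median of 0.077. Rbp2, the retinol carrier of the small intestine, was at 5.07, 5.84 and 5.09 in replicates 1, 2 and 3 of the chromium restriction group and at 5.01 to 5.20 in the controls, and so was highest on the array with intestinal transcripts. Rbp7, a retinol carrier of capillary endothelium and fat, was at 6.84, 7.01 and 7.92 in the chromium restriction arrays and at 7.02, 6.84 and 7.40 in the controls, so the groups overlapped; it was chosen after its values were seen. Crabp1 differed by 0.105 (limma, adjusted p = 0.984).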

How the data were processed

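Biotin-labelled total RNA of offspring adipose was hybridised to 1-colour arrays, 1 per sample, per the labels' protocols. The deposited log2 values hold 33793 probe sets on 6 arrays; the authors' summarisation and normalization are not stated, the log2 scale was inferred from their range (3.49 to 14.86), and no further normalization was applied. The correlation between arrays ran from 0.95 to 0.99 across genes. Platform annotation gave 1 symbol for 23521 probe sets, and the brightest of each gene's was tested (22180 genes), with no filter on dim ones. Of 202758 values, 183 in 64 probe sets carried more digits than the shortest single-precision form.

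Differences (chromium restriction minus control) came from limma 3.58.1 (lmFit, then eBayes) under R 4.3.3. Tests were two-sided, p-values were adjusted by Benjamini and Hochberg's method across all genes, and a gene was called at an adjusted p of 0.05. Tables and figures used pandas 2.3.3 and matplotlib 3.10.9, and the fit was tested on simulated data. With 3 arrays a group, their number limits the precision. Members, lists and motifs were chosen with earlier results of these data known. Named genes were the members, up to 4 of each list with the smallest p, those called, marker genes beside a result, and, for members ranging over at least 1 log2 unit, the 5 closest genes other than predicted loci. Same-numbered replicates did not deviate together (correlations of -0.12, -0.09 and 0.08 for numbers 1, 2 and 3), so the numbers were not treated as pairs.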

Additional observations from a re-analysis of the deposited data

How the results depend on the processing

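Fabp2 (difference 1.98) and Fabp3 (1.11) stayed past the threshold under median centring, quantile normalization, array weights, a trended and robust eBayes and a filter on dim genes. The same held for averaged probe sets, all probe sets as units, either tissue covariate and each array left out. Each tissue covariate was high on only some of the chromium restriction arrays, so neither alone covers the group. With the replicate number as a block Fabp2 at 1.98 and Fabp3 at 1.11 lost their calls (adjusted p = 0.135 each), with 0 members and 0 genes called. The block lowered the SE of Fabp5 from 0.465 to 0.0895 at the same difference of -0.445, still uncalled (limma, adjusted p = 0.822). Under an exact permutation test, which cannot go below 0.1 with 3 against 3, both were at p = 0.1, with the same differences. Without rows with extra digits Fabp2 was at 1.98 and Fabp3 at 0.243, neither called, with 0 members and 0 genes called. The other Fabp3 probe set then stood for the gene. For Fabp2 the unadjusted p stayed at 3.31e-06 (limma), and only its adjustment changed. Without both arrays that held hepatocyte transcripts Fabp2 was at 1.88 and Fabp3 at 1.08, uncalled (1 array against 3, the lone array being assumed to vary like the controls), Fabp5 turned to 0.174, its other probe sets to 0.15, 0.0282 and 0.133, and Fabp6 to 0.0475, with 0 members and 6 genes called. With the hepatocyte genes as covariate Fabp5 turned to 0.149, its other probe sets to 0.124, 0.0301 and 0.108, and Fabp6 to 0.0394. With the enterocyte genes as covariate Fabp1 was called at 6.25, and 337 genes were called in all. Array weights turned Fabp4 to 0.0082 and Fabp5 probe set 17404073 to 0.0911. Leaving out each array in turn gave -0.0836 to 0.0022 for Fabp4, -0.0876 to 0.0323 for Fabp6, 3.11 to 5.95 for Fabp1, -0.802 to -0.0622 for Fabp5, -0.658 to -0.0011 for its probe set 17396056, -0.48 to 0.155 for Fabp5 probe set 17404073, 2 to 3 members called, and 24 to 439 genes called against 43. The 439 calls and the Fabp1 call came without chromium restriction replicate 2. Apart from the fewer arrays or rows that a setting tests, and the adjustment described for Fabp2, the cause of these changes was not tested. The filter on dim genes gave no value for Fabp6 and Fabp7. No signal over background is given for these arrays, which limits what can be said of Fabp2, Fabp6, Fabp7 and the dimmer Fabp3 probe set.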

Other observations

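Enzymes that make or use the same lipids as the carriers were uneven. Of 13 measured genes of eicosanoid and retinoid enzymes 6 were higher and 7 lower, with 0 calls in limma and a median log2 difference of -0.045. Alox15, a lipoxygenase, differed by -0.439, Ptgds by -0.158, Alox5ap by 0.431 and Ptges by -0.296, with adjusted p of 0.817 to 0.896. Markers of pancreatic acinar cells were higher in 3 of 7 and lower in 4, with 0 calls and means of 5.27 to 5.45 in the chromium restriction arrays and 5.29 to 5.38 in the controls. Mesothelium markers were higher in 6 of 8, with 0 calls and means of 7.56 to 7.72 in the chromium restriction arrays and 6.71, 7.82 and 8.07 in the controls, control replicate 1 being the lowest.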
